A study of Mus musculus with 2 samples.

Results

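Ribosomal protein genes encode the proteins that, together with ribosomal RNA, build the large and small subunits of the cytosolic ribosome. Their products are needed in near-equal numbers in every cell, and a growing mouse embryonic stem cell (mESC) devotes much of its transcription to them. Their promoters are typically short, lie in CpG islands and lack a TATA box. Transcription starts inside a run of pyrimidines, which gives the mRNA a terminal oligopyrimidine (TOP) sequence at its 5′ end through which translation responds to growth signals.

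The members were the protein-coding genes of GENCODE named Rpl or Rps followed by a digit, plus Rplp0, Rplp1, Rplp2 and Rpsa. Kinase genes beginning Rps6k, names ending in l and names with a hyphen were left out. This name rule found 81 of 21938 protein-coding genes on chromosomes 1 to 19, X and Y. Of these, 43 encode proteins of the large subunit, 3 encode the stalk proteins that sit on it and 31 encode proteins of the small subunit. Another 4 carry the name and were counted apart from these. Rpl7l1 and Rpl22l1 are paralogs, Rps27rt is a retrocopy of Rps27, and Rps19bp1 is named for binding Rps19 and is no ribosomal protein.

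Open chromatin was measured by ATAC-seq: the Tn5 transposase inserts adapters wherever DNA is accessible. The cells were EHMT2-dTAG-mcherry ESCs, labelled as of the strain BL6/129 hybrid and derived by the study from the parental line KH2 (a C57BL/6J x 129S1 F1 background), in which both copies of Ehmt2 carry a degron tag and an mCherry reporter, and they were kept in serum with LIF. All of them received only the vehicle DMSO for 24 h, so the histone methyltransferase EHMT2 was present and there was no second condition. The samples were 2 independent clones of 50000 cells each, and the authors deposited 1 peak list for both merged.

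A peak was assigned to a gene when it overlapped 500 bp on either side of the annotated gene start. Its fold enrichment is the number of fragments over the peak's summit plus 1, divided by the local background plus 1. The fragment number was recovered from this ratio and the deposited p-value, and its intervals are exact Poisson intervals of 95% that cover counting error only. The list holds 116782 peaks with a median of 9 fragments over the summit. Since it merges both clones, no value below has a spread between replicates. Differences between groups of genes are therefore descriptions without a test. A lower value can come from less open DNA in every cell or from open DNA in fewer cells, and these cannot be told apart. As a check of the cell type label, 7 of 8 ESC marker gene starts had a peak, with fold enrichment from 2.83 to 15.9 and a median of 5.22, and 5 of 8 fibroblast marker starts did, from 5.33 to 7.50 with a median of 6.42. The median fragment numbers were 42 and 18. Among stronger peaks, with a −log10 q-value of 10 or more, these numbers were 5 and 2. The marker check thus did not separate the cell types by fold enrichment. The study grew its ESCs on mouse embryonic fibroblasts as feeders, and the part of feeder DNA in the values below was not tested.

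The promoters with the highest and the lowest fold enrichment are printed first, together with that of the stalk protein gene Rplp0. They show how different the DNA around these gene starts is. Each line gives 100 bases before the annotated start and the first 15 bases of the transcript, which lie in the 5′ untranslated part of exon 1. All are from GRCm38 (mm10) and read 5′ to 3′ on the gene's strand. Capitals mark a TOP start (a C followed by at least 4 further pyrimidines, from the first base of the transcript) and, on either strand, the letters CCGGAAG bound by ETS factors and GGGCGG bound by SP1. In Rpl37 the TOP run and a CCGGAAG on the other strand overlap.
Rpl15 (chr14:18271377-18271491, minus strand): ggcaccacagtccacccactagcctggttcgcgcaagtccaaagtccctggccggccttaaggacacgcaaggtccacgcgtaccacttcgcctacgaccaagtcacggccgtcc
Rpl34 (chr3:130730384-130730498, minus strand): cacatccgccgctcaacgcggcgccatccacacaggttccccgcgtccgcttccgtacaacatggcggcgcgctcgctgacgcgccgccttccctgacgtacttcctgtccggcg
Rpl37 (chr15:5116545-5116659, plus strand): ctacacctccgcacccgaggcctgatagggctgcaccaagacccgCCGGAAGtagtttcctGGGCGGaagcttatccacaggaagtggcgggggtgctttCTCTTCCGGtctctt
Rplp0 (chr5:115559367-115559481, plus strand): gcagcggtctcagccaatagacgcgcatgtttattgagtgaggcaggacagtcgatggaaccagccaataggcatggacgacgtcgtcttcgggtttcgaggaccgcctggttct
Rpl23a (chr11:78183570-78183684, minus strand): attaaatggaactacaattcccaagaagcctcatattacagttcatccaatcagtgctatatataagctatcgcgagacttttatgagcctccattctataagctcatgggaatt
Rpl8 (chr15:76903978-76904092, plus strand): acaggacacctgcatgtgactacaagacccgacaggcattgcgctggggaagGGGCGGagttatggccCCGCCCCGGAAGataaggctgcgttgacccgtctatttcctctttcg
Rpl36 (chr17:56613316-56613430, plus strand): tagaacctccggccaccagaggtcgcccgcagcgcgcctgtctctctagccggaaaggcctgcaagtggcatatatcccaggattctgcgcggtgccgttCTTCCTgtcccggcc

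Nearly all ribosomal protein gene starts lay in open chromatin. A peak was found at 75 of the 81 starts, which is 92.6% with an exact binomial interval of 84.6 to 97.2%, against 64.3% of all protein-coding gene starts. Each of these starts had exactly 1 peak, and no peak served a pair of members, so there were 75 distinct peaks. Of the large subunit genes with the stalk, 45 of 46 had a peak, and of the small subunit genes 28 of 31 did. At the stricter threshold, a −log10 q-value of 10 or more, 56 members (69.1%) kept a peak, against 47.1% of all starts.

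The comparison with all genes changes when CpG content is considered. Gene starts whose window had a ratio of observed to expected CpG above 0.6 and a GC content above 50% are called CpG-rich here, and 68 of the members were. Of these, 67 (98.5%) had a peak, next to 9480 of 9738 CpG-rich starts overall (97.4%). With the stricter q-value it was 51 of 68 CpG-rich members, and 7862 of all 9738 CpG-rich starts (80.7%). The member windows had a median observed to expected CpG ratio of 0.79 and a GC content of 56.6%, and all windows 0.55 and 54.7%. The share of open starts among the members was thus near that of CpG-rich genes in general.

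**Figure D1:**
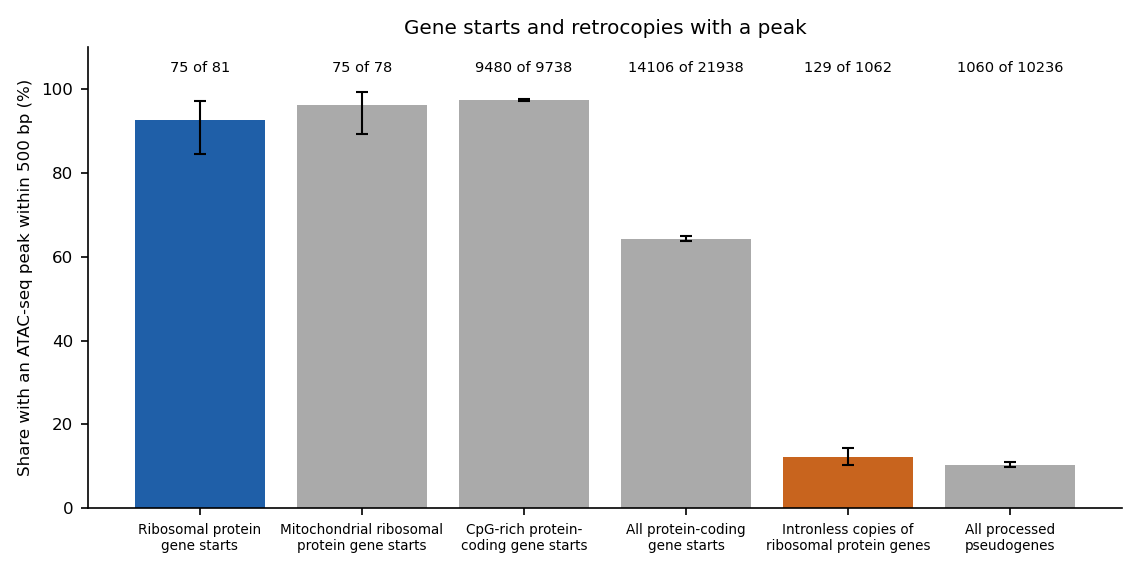
Share of starts with an ATAC-seq peak within 500 bp, in percent, with exact binomial 95% intervals as error bars and the counts above each bar. Ribosomal protein gene starts (75 of 81, 92.6%) sit beside CpG-rich starts (97.4%) and far above the intronless copies of the same genes (129 of 1062, 12.1%).

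The peaks themselves were of ordinary height. Fold enrichment at the members ran from 2.67 to 16.1 with a median of 7.73 and quartiles of 5.65 and 9.94. For all protein-coding starts with a peak the median was 8.43 and the quartiles were 5.86 and 11.4, and for CpG-rich starts the median was 9.21. Only 12 members (16.0%) lay above the upper quartile of all start peaks, and 22 (29.3%) lay below the lower quartile. In fragments the members had a median of 33 with quartiles of 22 and 52, and all starts with a peak 32 with quartiles of 18 and 53. Their local background was a little higher, with a median of 3.38 fragments against 2.90 at all starts. The genes of both subunits gave like values, with median fold enrichments of 7.93 for the large and 7.29 for the small subunit and medians of 34 and 31.5 fragments.

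The member peaks were also narrow. Their median width was 841 bp, against 1045 bp for all start peaks, 1107 bp for CpG-rich starts and 898 bp for the genes of mitochondrial ribosomal proteins. The narrowest was 300 bp at Rps15, and the widest was 1912 bp at Rpl7. Across the 75 members, fragments and local background rose together, with a Spearman's rho of 0.75, as they did over all start peaks (0.82). Both are read from the same libraries at the same place. Fold enrichment had a rho of 0.19 with the CpG ratio and 0.02 with GC content. These correlations are across genes, which are not independent replicates.

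**Figure D2:**
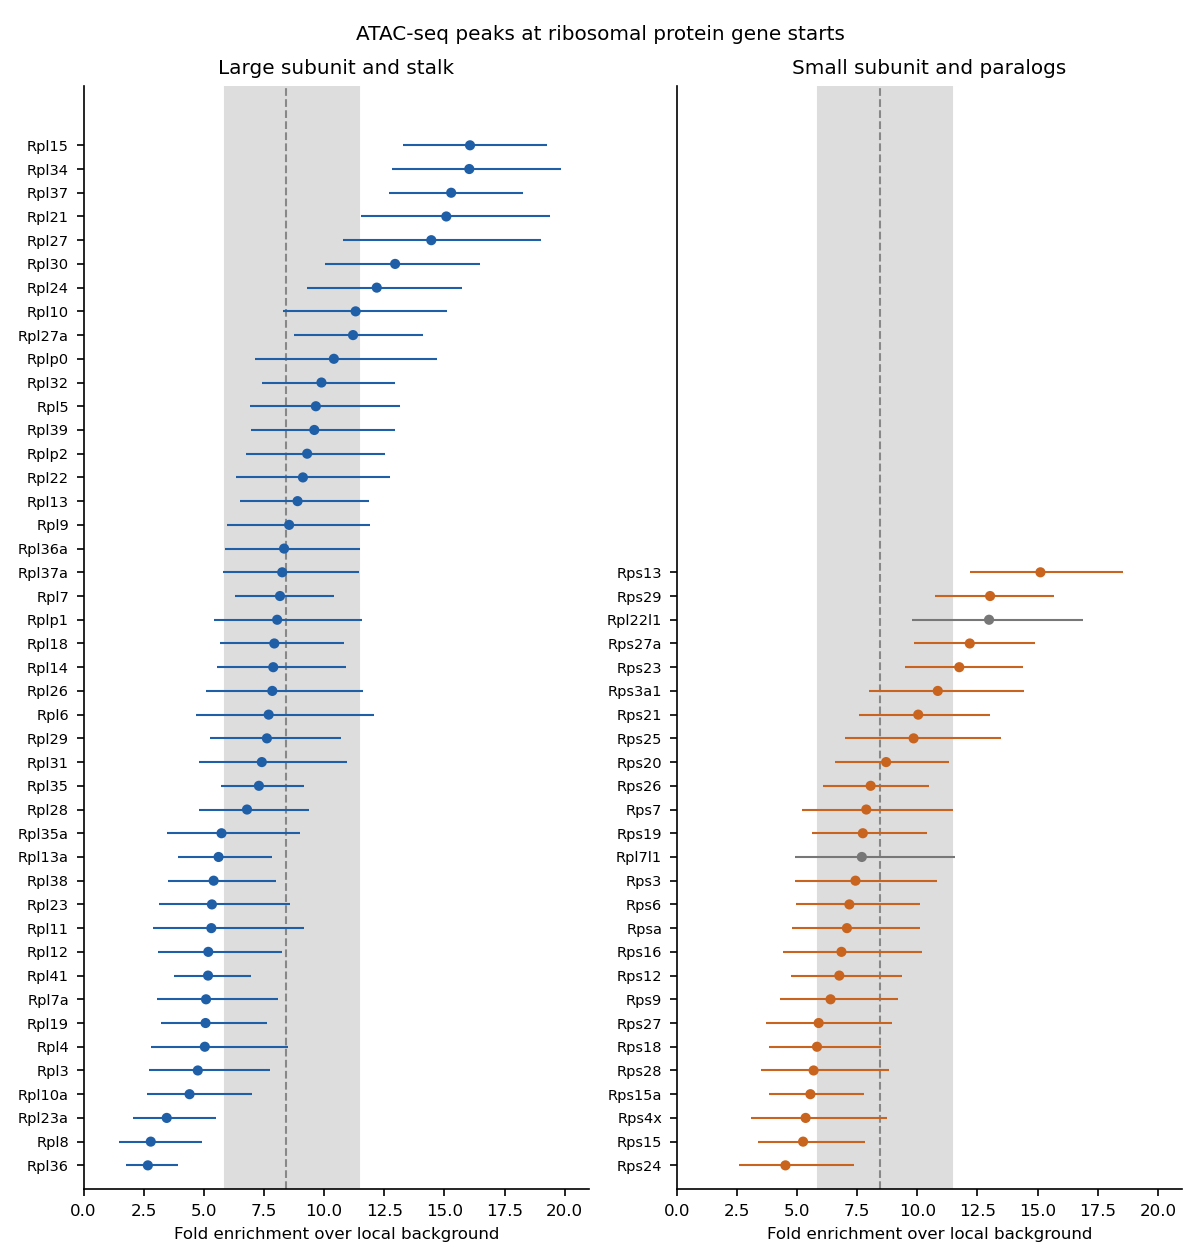
Fold enrichment over the local background for 70 of the 75 ribosomal protein genes with a peak, split into the large subunit with the stalk (blue), the small subunit (orange) and the paralogs Rpl22l1 and Rpl7l1 (grey). Lines give the value at the bounds of the Poisson 95% interval of the fragment number, the grey band gives the quartiles of all start peaks (5.86 and 11.4) and the dashed line their median (8.43). Values run from 2.67 at Rpl36 to 16.1 at Rpl15.

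The highest peaks belonged to both subunits. At Rpl15, a large subunit protein, 114 fragments (interval 94.0 to 137) lay over the summit at a fold enrichment of 16.1, above 95.5% of all start peaks. Rpl34 followed with 83 fragments (66.1 to 103) and 16.0. Rpl37 had the largest number of fragments of any member, 120 (99.5 to 143), with a fold enrichment of 15.3. Then came Rps13 of the small subunit with 90 fragments and 15.1, and Rpl21 with 59 fragments and 15.1. Rpl21 equalled Rps13 on fewer fragments, over a lower local background of 2.98 against 5.02 fragments. Other genes start close to some of these promoters. The start of Nkiras1 lay 255 bp downstream of that of Rpl15 on the opposite strand, and noncoding genes began 62 bp upstream of Rpl34 and 60 bp upstream of Rps13. The summits lay at 223 bp from the start for Rpl15, −100 bp for Rpl34 and −96 bp for Rps13, where negative is upstream. Each of these summits was nearer to the neighbouring gene's start than to the member's own.

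The lowest peaks were those of Rpl36, Rpl8, Rpl23a, Rpl10a and Rps24. Rpl36 had the lowest fold enrichment of all members, 2.67, although 24 fragments (15.4 to 35.7) lay over its summit. Its local background of 8.36 fragments was the second highest among the members, and its peak was 301 bp wide. Rpl8, whose protein lies next to the peptidyl transferase centre, had the fewest fragments of all, 10 (4.80 to 18.4), with 2.79-fold enrichment and a −log10 q-value of 1.63, just past the threshold of the list. Rpl23a, at the mouth of the exit tunnel, had 16 fragments and 3.46, Rpl10a 16 fragments and 4.40, and Rps24 14 fragments and 4.52. The start of Rps24 lies 67 bp from that of Polr3a, a subunit of RNA polymerase III read from the other strand. The intervals of the lowest and highest members are far apart, so this difference exceeds counting error, whereas neighbours in the order overlap.

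The stalk genes and several members known for roles beyond the ribosome lay mostly in the middle of the range. The stalk proteins recruit translation factors, and their genes had fold enrichments of 10.4 at Rplp0 (30 fragments), 8.05 at Rplp1 (27) and 9.29 at Rplp2 (41). Rpsa, which encodes a small subunit protein also known as a laminin receptor, had 7.07 with 28 fragments. Rps6, the substrate of S6 kinase, had 7.17 with 31 fragments, and Rps19, the gene most often mutated in Diamond-Blackfan anaemia, had 7.73 with 42, the median fold enrichment of all members. Rps27a, which is made as a fusion with ubiquitin, stood higher at 12.2 with 94 fragments (76.0 to 115). Its summit lay 102 bp downstream of its start, nearer to the start of Clhc1, 159 bp downstream on the opposite strand.

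Rpl5 and Rpl11 bind the 5S ribosomal RNA together and, when free, inhibit MDM2. Their peaks differed in fragment number. Rpl5 had 38 fragments (26.9 to 52.2), a fold enrichment of 9.65 and a peak 1778 bp wide. Rpl11 had 11 fragments (5.49 to 19.7) and 5.31, with the lowest local background of any member, 1.26 fragments. The fragment intervals of the pair do not overlap. Rpl38, known for its role in the translation of Hox mRNAs, had 23 fragments and 5.41.

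On the X chromosome all 4 members had a peak. Fold enrichment was 11.3 at Rpl10 (44 fragments), 9.59 at Rpl39 (41), 8.33 at Rpl36a (35) and 5.36 at Rps4x (14). Their median of 8.96 lay within the quartiles of all members. Leaving out chromosomes 8 and X gave a median of 7.69 for the rest.

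The paralogs had peaks within the range of the canonical genes. Rpl7l1 had 21 fragments and a fold enrichment of 7.69, and Rpl22l1 had 53 fragments and 13.0, more than Rpl22 itself with 32 and 9.12. Ribosomal proteins and relatives that the name rule left out showed the same range. Fau, which encodes a ubiquitin-like fusion with a small subunit protein, had 21 fragments and 7.05. Rack1, a scaffold on the small subunit, had 53 fragments and 10.6. Rpl36al had 88 fragments and 13.6, Rps27l 33 and 9.71, and Rpl10l 29 and 8.93. The muscle gene Rpl3l and the gene Rpl39l had no peak, and the nearest peaks were 3089 and 22349 bp away. Rps4l was not analysed here.

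Summits sat close to the start. Their median position was −17 bp, where negative is upstream, and 39 of 75 (52.0%) lay within 100 bp of the start. For all start peaks 37.6% did, for CpG-rich starts 40.1% and for mitochondrial ribosomal protein genes 53.3%. Upstream of the start lay 44.0% of the summits of all start peaks and 48.6% of those at CpG-rich starts. At the mitochondrial ribosomal protein genes 24 (32.0%) did. Of the member summits, 40 (53.3%) were upstream of the start. The farthest upstream was that of Rpl10 at −364 bp, and the farthest downstream was that of Rpl3 at 752 bp. All but 1 of the 75 peaks covered the start itself. The exception was Rpl35, whose peak began 138 bp away with its summit 361 bp downstream, where the start of Arpc5l lies 276 bp downstream on the other strand. This peak was the nearest to the limit of the rule from inside, and that of Rps14 at 661 bp was the nearest from outside.

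**Figure D3:**
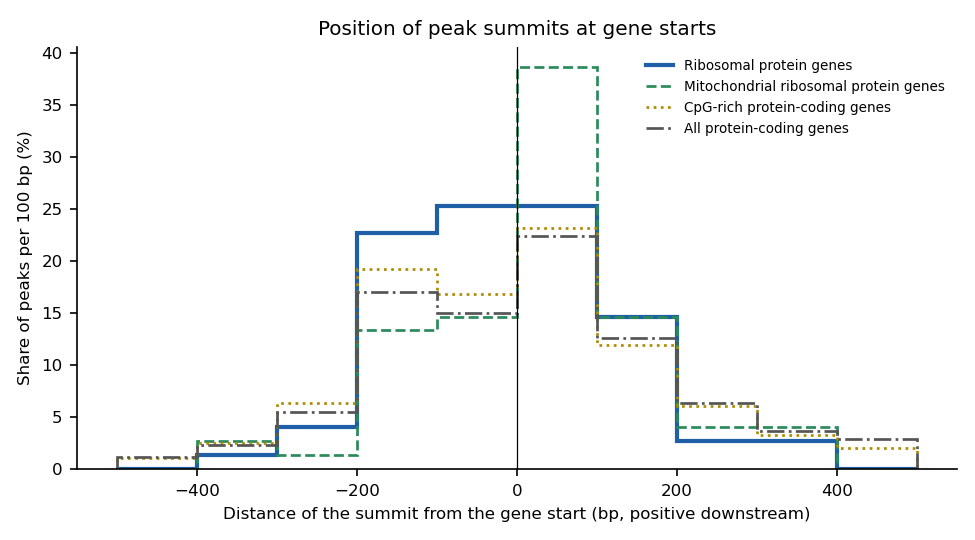
Share of start peaks, in percent per 100 bp, by the distance of the summit from the gene start in bp (positive downstream), for ribosomal protein genes (75 peaks), mitochondrial ribosomal protein genes (75), CpG-rich genes (9480) and all protein-coding genes (14106). For ribosomal protein genes 19 summits fell in the 100 bp before the start and 19 in the 100 bp after it, and peaks with summits beyond 500 bp are not drawn.

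The 6 starts without a peak were of 2 kinds. At Rps2, Rps10, Rps14 and Rpl17 the annotated gene start belongs to an upstream transcript, and a peak lay at a downstream start of another coding transcript of the same gene. The windows at these gene starts were poor in CpG, with ratios of 0.15 at Rps2, 0.31 at Rps10, 0.17 at Rps14 and 0.22 at Rpl17. Rps2, which encodes a protein at the mRNA entry channel, has a coding transcript starting 1994 bp downstream, in a window with a CpG ratio of 0.88. That start lay in a peak with 20 fragments (12.2 to 30.9) and a fold enrichment of 4.79. Rps10 has one 1425 bp downstream in a peak with 13 fragments and 4.46. For Rpl17 a start 1919 bp downstream had 31 fragments and 7.80. For Rps14, a small subunit gene lost in the 5q- syndrome, a start 27498 bp downstream had 63 fragments (48.4 to 80.6) and 11.3, and one 573 bp downstream had 16 fragments and 4.19. The gene start of Rps2 lies 53 bp from that of Rnf151 on the other strand, and it too had no peak.

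Rpl3, which reaches into the catalytic centre of the large subunit, belongs beside these genes although it counted as having a peak. At its gene start, which is 534 bp from that of Syngr1 on the other strand, the peak had 14 fragments, a fold enrichment of 4.75 and a summit 752 bp downstream. At the start of its principal transcript, 8462 bp further on, a separate peak had 21 fragments and 6.18. When the start of any coding transcript was allowed, 79 of the 81 genes (97.5%) had a peak, against 68.6% of all protein-coding genes, and all 77 subunit genes were among them.

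For Rps2 and Rps10 the gene start and a downstream start in a peak are both printed, to show how their sequences differ. For Rpl3 only the principal start is. The gene start of Rps2 is shown with 67 bases before it and that of Rps10 with 100. For Rps2 and Rps10 the line of the downstream start gives 15 bases on either side of it, and that of Rpl3 gives 100 before and 15 after. Capitals mark a TOP start or the SP1 letters. The downstream starts printed for Rps2 and Rps10 are both TOP starts, and neither gene start is. Each is 1 of several annotated coding starts in its peak. Those 1947 and 2135 bp downstream in Rps2 are not TOP starts. In Rps10 the one at 1429 bp is, and those at 1124 and 1441 bp are not. The downstream starts named above for Rpl17 and Rps14 are not TOP starts. Sequence is not shown for Rps14 and Rpl17.
Gene start of Rps2 (chr17:24718049-24718130, plus strand): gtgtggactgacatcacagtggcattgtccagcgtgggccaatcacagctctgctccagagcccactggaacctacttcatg
Downstream start of Rps2 (chr17:24720095-24720124, plus strand): ccgcggcgcctccctCTTCTTCTTCTTCgg
Gene start of Rps10 (chr17:27636655-27636769, minus strand): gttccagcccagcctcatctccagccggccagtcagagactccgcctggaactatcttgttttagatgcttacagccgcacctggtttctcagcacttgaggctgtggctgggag
Downstream start of Rps10 (chr17:27635230-27635259, minus strand): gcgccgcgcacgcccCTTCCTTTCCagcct
Principal start of Rpl3 (chr15:80083392-80083506, minus strand): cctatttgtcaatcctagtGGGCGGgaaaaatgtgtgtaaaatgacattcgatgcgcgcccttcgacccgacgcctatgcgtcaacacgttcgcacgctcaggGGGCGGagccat

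**Figure D4:**
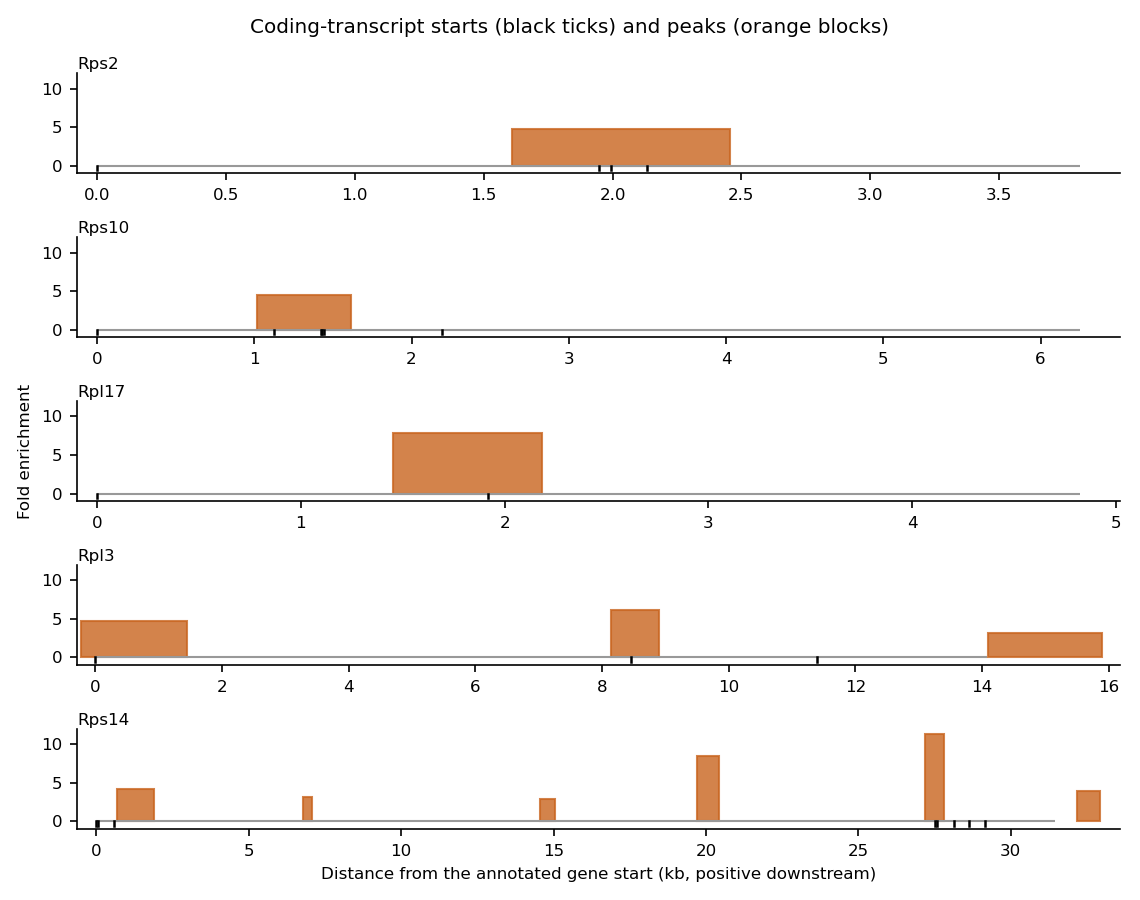
Annotated starts of coding transcripts (black ticks) and ATAC-seq peaks (orange blocks, as wide as the peak and as high as its fold enrichment) along Rps2, Rps10, Rpl17, Rpl3 and Rps14, by distance from the annotated gene start in kb. At Rps2, Rps10, Rpl17 and Rps14 no peak comes within 500 bp of the position 0, and the peaks at downstream starts reach fold enrichments of 4.79, 4.46, 7.80 and 11.3.

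The other 2 genes without a peak, Rps27rt and Rps19bp1, had none at any coding start. The start of Rps19bp1 had a CpG ratio of 0.79, like the members with a peak, yet the nearest peak was 13262 bp away. It is 1 of 258 CpG-rich gene starts in the genome with no peak. Its sequence is shown with the SP1 letters in capitals.
Rps19bp1 (chr15:80264301-80264415, minus strand): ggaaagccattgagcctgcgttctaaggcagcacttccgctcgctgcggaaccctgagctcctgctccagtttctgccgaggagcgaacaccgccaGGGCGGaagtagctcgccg

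Rps27rt is an intronless copy of Rps27, a small subunit gene with a zinc finger, inserted elsewhere in the genome. The pair is printed with 60 bases before the shared start in lower case and 15 bases after it in capitals. From this start, which in Rps27 lies 4 bp from the annotated one, the first 25 bases are 100% identical. In the 100 bases before it 21% are, and in the last 20 of these 25%. The copy retains the TOP start CTTTCC. Rps27 had a peak with 20 fragments (12.2 to 30.9) and a fold enrichment of 5.90, whereas Rps27rt had none within 3073 bp. The protein-coding gene Rab13 starts 44 bp upstream of the annotated start of Rps27 on the opposite strand. The CpG ratio of the window was 0.89 at Rps27 and 0.41 at Rps27rt.
Rps27 (chr3:90213633-90213707, minus strand): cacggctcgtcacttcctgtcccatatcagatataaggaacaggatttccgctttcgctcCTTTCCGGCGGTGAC
Rps27rt (chr9:114982725-114982799, minus strand): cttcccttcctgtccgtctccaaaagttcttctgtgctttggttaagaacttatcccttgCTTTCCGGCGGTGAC

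The same comparison was made over the genome. Ribosomal protein mRNAs have been copied back into the mouse genome many times, and a search with the coding sequences of the 77 subunit genes found 1062 intronless copies that match 80% or more of the length at an identity of 90% or more. Copies existed for 74 genes, with a median of 10 per gene. Rpl21 had the most, 81, followed by Rpl7a with 78 and Rpl29 with 67. For Rpl8 and Rps3 none were found. A peak lay within 500 bp of the 5′ end of the copied coding sequence for 129 copies (12.1%, exact binomial interval 10.2 to 14.3%). Among all annotated processed pseudogenes it was 10.4% (1060 of 10236). The peaks at copies were weak, with a median of 8 fragments and a maximum of 47. At the stricter q-value only 1.32% of copies kept one. Leaving out copies within 1000 bp of a protein-coding start gave 11.9%. Rps2 had the most copies with a peak, 22 of 55.

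Reads that match several places were put at 1 best place, with ties at random, so a copy of near-perfect identity can take reads from its parent gene. With repeats masked, 1 of the 81 start windows, that of Rpl37a, was matched elsewhere in the genome over 50% or more of its length at 90% identity or better. Shorter matches of that identity existed for more windows, and 65 had at least 1 match of any length. The longest match, at 80% identity or more, covered 56.5% of the window at Rpl37a, 39.3% at Rpl17, 37.7% at Rps27rt and 35.5% at Rps29. The part of such reads in the member peaks was not tested.

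Promoter motifs were counted in the 250 bases before to 50 bases after each gene start, on both strands. The ETS letters CCGGAAG were found at 21 members (25.9%), against 10.8% of all protein-coding starts and 18.6% of CpG-rich ones. ETS factors such as GABPA are widespread activators of housekeeping genes. Among the mitochondrial ribosomal protein genes the share was higher, 34.6%. The letters were also at 7 of 15 ribosome biogenesis genes (46.7%) and 2 of 17 other TOP and translation genes (11.8%). The 23 matches in the members had a median position of −21 bp, and 20 of them (87.0%) lay within 100 bp of the gene start, against 77.6% of matches at CpG-rich starts. The genes included the stalk genes Rplp1 and Rplp2, Rpsa, Rpl11, Rpl38 and Rps6. When the search was centred on the peak summits, with 150 bp on either side, 34.7% of member peaks held the letters, against 15.9% of all start peaks.

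The palindrome CTCGCGAG, bound by ZBTB33, was rarer. It occurred at 7 members (8.64%), among them Rpl4, Rpl26, Rpl27a, Rps6 and Rps28, against 1.21% of all starts and 2.44% of CpG-rich ones. Of the mitochondrial ribosomal protein genes 3.85% had it. Around the summits the palindrome was found in 9.33% of member peaks and in 1.77% of all start peaks. It was in 2.34% of peaks at CpG-rich starts and 1.33% of those at mitochondrial ribosomal protein genes. The members that carry it did not have higher peaks, with a median fold enrichment of 7.17 for those 7 and 7.88 for the other 68. Members with the ETS letters had a median of 7.84 and those without 7.71. The promoter of Rps6 is printed because it holds both, chosen after the matches were seen, from 200 bases before to 15 after the start. Capitals mark CTCGCGAG and CCGGAAG.
Rps6 (chr4:86857398-86857612, minus strand): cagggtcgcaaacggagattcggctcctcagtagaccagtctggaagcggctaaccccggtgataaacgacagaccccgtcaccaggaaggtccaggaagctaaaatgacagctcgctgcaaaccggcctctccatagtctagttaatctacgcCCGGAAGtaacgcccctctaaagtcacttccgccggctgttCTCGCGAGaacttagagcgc

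The other motifs lay on either side of their shares elsewhere. The SP1 letters GGGCGG occurred at 37 members (45.7%), against 43.0% of all starts but 71.7% of CpG-rich ones. The E-box CACGTG, to which MYC and MAX bind, was at 11 members (13.6%), against 7.75% of all and 11.3% of CpG-rich starts. The YY1 letters AAGATGGC were at 6 (7.41%), against 2.92% of all and 4.70% of CpG-rich starts, and all of these lay within 100 bp of the start with a median position 40.5 bp downstream. The NRF1 letters GCATGCGC were at 3 (3.70%), against 3.71% of all and 6.13% of CpG-rich starts. A TATA box was searched as TATAAA or TATATA from 40 to 20 bases before the start on the gene's strand. It was found at Rpl4 alone (1.23%), against 3.41% of all starts but 1.07% of CpG-rich ones. Of the 78 mitochondrial ribosomal protein genes 0 had one. Among the mitochondrial ribosomal protein genes the shares were 44.9% for the SP1 letters, 6.41% for the E-box, 12.8% for YY1 and 8.97% for NRF1. Of 15 ribosome biogenesis genes, 4 (26.7%) had the E-box and 1 (6.67%) the YY1 letters. Of 17 other TOP and translation genes, 2 (11.8%) had the E-box and 4 (23.5%) the YY1 letters. Such matches are descriptions of the sequence and were not tested as binding sites. SP1 letters can overlap ETS letters, as they do in Rpl8.

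TOP starts depend on knowing the first base of the transcript. At the annotated gene starts, 8 members (9.88%) began with a C and at least 4 further pyrimidines, against 2.33% of all protein-coding genes. Among them were Rpl4, Rpl32, Rpl36, Rpl37, Rpl37a, Rps21 and the retrocopy Rps27rt. By subunit they were 6 of 46 large and 1 of 31 small subunit genes, and the retrocopy. Over all annotated coding transcript starts the number rose to 23 (28.4%), with 12 of 31 small subunit and 10 of 46 large subunit genes, against 5.14% of all genes and 6.41% of mitochondrial ribosomal protein genes. In the list of other translation genes, which holds elongation and initiation factors known for TOP mRNAs, it was 8 of 17. RefSeq starts of the same build gave 14 of 63 members with an entry (22.2%), against 3.01% of 27025 genes. If the run could lie anywhere within 20 bases of the gene start, 54 of 81 members (66.7%) and 10965 of 21938 genes had one.

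**Figure D5:**
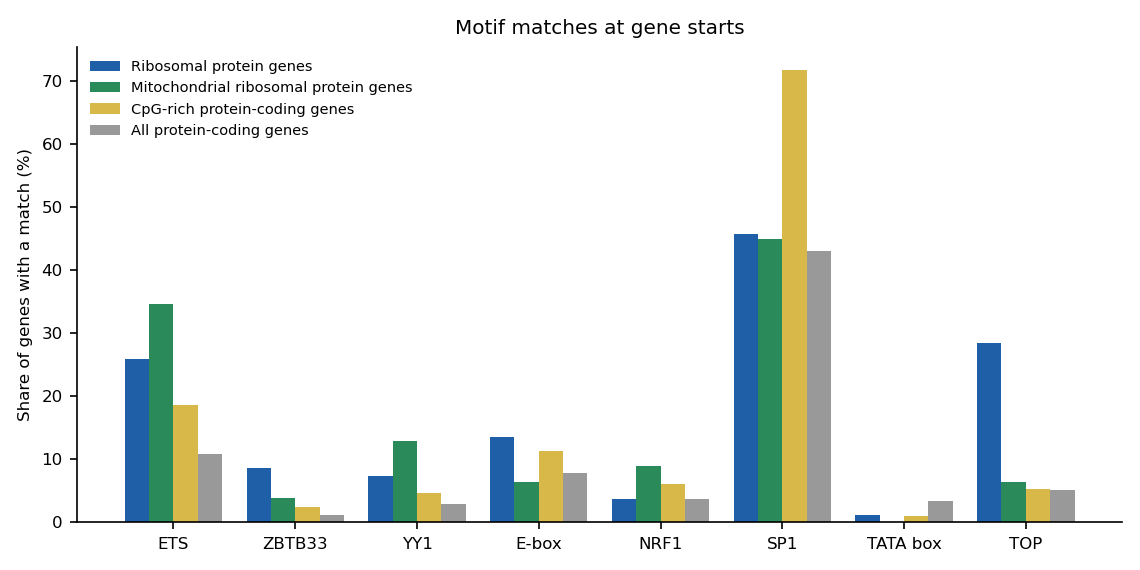
Share of genes, in percent, with each motif in 250 bases before to 50 after the gene start (ETS, ZBTB33, YY1, E-box, NRF1 and SP1), with a TATA box from 40 to 20 bases before it, or with a TOP start at any annotated coding transcript start. Ribosomal protein genes exceed all protein-coding genes by the most percentage points in TOP starts (28.4 against 5.14%) and ETS letters (25.9 against 10.8%), and have fewer SP1 letters than CpG-rich genes (45.7 against 71.7%).

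Further features of the genomic setting were counted, and each was held by a minority of the members. Small nucleolar RNA genes, whose products guide the modification of ribosomal RNA, lay inside 30 of the 81 genes (37.0%), and inside 279 of all 21938 (1.27%). Such genes also lay inside 5 of the 17 other TOP and translation genes (29.4%) and 4 of 15 ribosome biogenesis genes (26.7%). Of the 78 mitochondrial ribosomal protein genes 0 held one. In the members the small nucleolar RNA genes numbered 58, with 5 in Rpl4 and 4 in Rpl13a. The 28 host genes with a peak had a median fold enrichment of 8.20, and the 47 other members with a peak 7.73. A gene on the opposite strand started within 1000 bp of 22 members (27.2%), against 18.4% of all genes, 32.0% of CpG-rich genes and 47.4% of mitochondrial ribosomal protein genes. In 15 cases it was protein-coding, as for Rpl9 with Lias, Rps28 with Ndufa7 and Rps18 with Vps52. Of the members with such a neighbour, 21 of 22 had a peak with a median fold enrichment of 7.29. The 59 without one had 54 peaks with a median of 7.79.

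Genes of related function were open about as often. A peak lay at 75 of 78 mitochondrial ribosomal protein genes (96.2%), with a median fold enrichment of 9.56. It lay at 14 of 15 ribosome biogenesis genes, among them those of nucleolar proteins and RNA polymerase I, with a median of 9.38. Of the 17 other TOP and translation genes 16 had a peak, with a median of 10.98. In this list Eef1a1, the most abundant elongation factor, had only 15 fragments and 4.40, with a summit 913 bp downstream, and Eef2 had no peak within 9241 bp of its annotated start. The lists were chosen with results of these data known. By fold enrichment the cytosolic ribosomal protein genes, with a median of 7.73, lay below each of the 3 lists, but not by fragments. Their median of 33 fragments lay above that of the mitochondrial ribosomal protein genes (30) and below those of the biogenesis list (36.5) and the translation list (48). The local background had medians of 3.38 fragments at the members, 2.46 at the mitochondrial ribosomal protein genes, 2.49 at the biogenesis list and 4.09 at the translation list.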

How the data were processed

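ATAC-seq was performed on 2 clones of EHMT2-dTAG mESCs. The authors aligned reads to mm10, removed duplicates and reads in high signal regions, shifted fragments to the Tn5 cut and called peaks on the merged clones. The submitters' processing notes name STAR 2.7.10, Picard 2.26.0, SAMtools 1.14, bedtools 2.30.0 and MACS2 2.2.6. Fold enrichment, as deposited by the authors, is a ratio in which 1 is added to both the summit pileup and the local background. A −log10 p-value and a −log10 q-value are deposited for each summit, and the list holds peaks under a q-value of 0.05. The deposited score was not used. Some genes enter the counts and medians but are not reported here by themselves. Library totals were not analysed here.

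The fragment number and background were solved from that ratio and its p-value. The number came out whole, within 0.01 fragments, for 116779 of 116782 peaks, and the step, tested on 11328 simulated peaks, recovered 100%. Starts were those of GENCODE vM21 on GRCm38, an earlier release than the study used. Where several peaks overlapped a window, the one of highest fold enrichment was taken. Copies were searched with BLAST 2.17.0, leaving out matches inside the member genes. Software was SciPy 1.17.1, pandas 2.3.3, NumPy 2.4.6 and pysam 0.24.0 under Python 3.11.15.

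The members and lists were chosen with earlier results of these data known. The named genes are the members without a peak, the 5 of highest and 5 of lowest fold enrichment, the stalk, X-linked, paralog and retrocopy genes, and Rpsa, Rpl3, Rpl5, Rpl11, Rpl38, Rps6, Rps14, Rps19 and Rps27a, with ribosomal proteins and relatives named otherwise. Others are named for a motif, a copy number or an extreme, after their values were seen. No test was made, since the list has 1 condition and no replicate values. Alternatives were −log10 q-values of 10 or more, windows of 250 and 1000 bp, the summit inside the window, the principal transcript start, the nearest peak, and subsets of the genes.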

Additional observations from a re-analysis of the deposited data

How the results depend on the processing

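Across 66 alternatives to 9 results, 60 stayed within 1.5-fold of the reported value, or within 50 bp for the summit distance, and 6 did not. The share of members with a TOP start, 9.88% at the gene start, became 66.7% within 20 bases of the start, 4.94% with at least 6 further pyrimidines, 28.4% at any coding transcript start and 22.2% at RefSeq starts. The share of copies with a peak, 12.1%, became 1.32% for −log10 q-values of 10 or more. The share of all protein-coding starts with a peak, 64.3%, became 97.4% for CpG-rich genes. The RefSeq and CpG-rich alternatives, any coding transcript start for peaks, and copies away from coding starts were 5 alternatives added after seeing the data. The share of members with a peak ranged from 69.1% at the stricter q-value to 97.5% at any coding transcript start. Both counted as within 1.5-fold of 92.6%, a share that cannot rise 1.5-fold. Taking the nearest peak could not change the member values, since each start with a peak had exactly 1, nor the share of all starts with a peak. No paired analysis was possible because the list merges both clones of 1 condition. Leaving out a clone was not possible for the same reason. With a median of 33 fragments at member summits, differences between neighbouring genes are within counting error, and weak peaks such as that of Rpl8 with 10 fragments are near the limit of the list.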
